A study of Sus scrofa with 20 samples.

Results

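Expression of 10 genes of polyunsaturated fatty acid metabolism was compared between backfat and liver of the pig: the fatty acid desaturases FADS1, FADS2 and FADS3, the elongases ELOVL2, ELOVL5 and ELOVL7, and the long-chain acyl-CoA synthetases ACSL1, ACSL3, ACSL4 and ACSL5. The genes were chosen by symbol, and each was matched to a single Ensembl gene among the 31907 genes of the count table. All 10 were among the 16275 genes with enough reads to be tested. Backfat (subcutaneous fat of the back) and liver were taken from 5 untreated, wild-type Nanchukmacdon boars, a Korean pig breed, with a normal disease state and an age of 22 months per the labels. The study's methods give a higher average age. RNA-seq of poly(A) RNA gave 1 library per tissue and boar, 10 in all, and the boars are named here by the numbers in the column headers of the count table (65, 67, 69, 71 and 72). Whole-genome bisulfite libraries of the same tissues were also made, but the files used here give their methylation calls without a genomic position, so nothing on methylation of these genes is reported.

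Dietary linoleic and alpha-linolenic acids are turned into longer and more unsaturated fatty acids, such as arachidonic acid and docosahexaenoic acid, by desaturases, which add double bonds, and elongases, which add carbon units. FADS2 catalyses the first desaturation and FADS1 a later step that yields arachidonic and eicosapentaenoic acids. The acyl-CoA synthetases join free fatty acids to coenzyme A, without which they cannot be elongated, desaturated, oxidized or stored in lipids. Liver is known as the main organ of long-chain polyunsaturated fatty acid synthesis, and adipose tissue as the main store of fatty acids.

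The desaturase genes lie side by side on chromosome 2 of Sscrofa11.1, within 139.8 kb. FADS3 (chr2:9607627-9627352, plus strand) and FADS2 (chr2:9633941-9666666, minus strand) face each other with their 3' ends, 6.6 kb apart, while FADS2 and FADS1 (chr2:9735425-9747405, plus strand) face each other with their starts, 68.8 kb apart. The elongase genes are at chr7:7651707-7732353 (ELOVL2), chr7:46860768-46932945 (ELOVL5) and chr16:39588122-39680273 (ELOVL7), all on the minus strand. The synthetase genes are at chr15:45866858-45936327 (ACSL1, minus), chr15:124741986-124816955 (ACSL3, plus), chrX:89760863-89838103 (ACSL4, minus) and chr14:122777135-122828054 (ACSL5, plus). The 250 bases before the start of the RefSeq gene are shown for FADS2 and FADS3, the adjacent genes with opposite differences between the tissues, and for ELOVL2, the gene with the largest difference of the 10. Capitals mark the GC box (GGGCGG) and the CCAAT box (CCAAT) on either strand, and adjoining or overlapping matches are merged.
FADS2, chr2:9666667-9666916, minus strand: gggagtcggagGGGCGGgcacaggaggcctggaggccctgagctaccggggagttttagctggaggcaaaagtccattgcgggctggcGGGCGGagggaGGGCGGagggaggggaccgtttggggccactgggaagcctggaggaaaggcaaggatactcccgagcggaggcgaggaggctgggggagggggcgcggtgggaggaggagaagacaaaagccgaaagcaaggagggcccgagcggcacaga
FADS3, chr2:9607377-9607626, plus strand: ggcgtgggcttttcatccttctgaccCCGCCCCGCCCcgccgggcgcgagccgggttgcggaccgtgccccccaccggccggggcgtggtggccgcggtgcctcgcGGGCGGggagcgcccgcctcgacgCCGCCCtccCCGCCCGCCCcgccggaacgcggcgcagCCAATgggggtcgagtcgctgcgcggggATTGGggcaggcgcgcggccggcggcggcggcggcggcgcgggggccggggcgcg
ELOVL2, chr7:7732354-7732603, minus strand: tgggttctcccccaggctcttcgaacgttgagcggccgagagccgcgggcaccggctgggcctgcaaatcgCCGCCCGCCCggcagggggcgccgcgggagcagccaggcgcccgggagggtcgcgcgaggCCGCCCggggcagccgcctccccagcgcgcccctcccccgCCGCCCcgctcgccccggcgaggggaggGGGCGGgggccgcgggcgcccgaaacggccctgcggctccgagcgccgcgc

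The windows of FADS2, FADS3 and ELOVL2 were 68.4%, 84.4% and 83.2% G and C, against a median of 57.2% over the windows of 20651 protein-coding genes. The GC box was found 3 times before FADS2, 6 times before FADS3 and 5 times before ELOVL2. FADS3 also held 2 CCAAT boxes, and FADS2 and ELOVL2 held none. Over the 10 genes, 7 windows held a GC box and 7 a CCAAT box, against 44.5% and 32% of all windows. The core of the sterol regulatory element (TCACNCCAC), the TATA box (TATAAA) and a binding motif of HNF4 (CAAAGTCCA) were in none of the 10 windows, and in 0.77%, 10.4% and 0.315% of all. The RefSeq model of FADS1 begins at its start codon, so its window is not at a transcript start and its sequence is not shown.

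Libraries held 43820042 to 61772737 counts. Levels are given as CPM, the count of a gene scaled to the library's total after TMM normalization (trimmed mean of M values), and, to compare genes with each other, as FPKM, the same CPM per kilobase of the gene's exons. A log2 fold change is backfat minus liver, so it is negative where liver was higher, and a gene passed the test at an adjusted p of at most 0.05 in edgeR's quasi-likelihood test. The libraries carried the markers of their tissue: the summed level of 10 hepatocyte markers was 21745 to 87408 CPM in liver and 205.1 to 712 in backfat, and that of 9 adipocyte markers 16011 to 24373 CPM in backfat and 46.1 to 58.4 in liver. Unlike the other levels, marker sums are scaled to the library's total alone, without TMM. The library liver 67 stood apart, with 44.5% of its counts from the mitochondrial genome (6.38% to 20.2% in the other 4), the lowest hepatocyte marker sum, and muscle and red cell marker sums of 127 and 1334 CPM against at most 3.42 and 293 in the others. Backfat 69 held the highest hepatocyte marker sum of the backfat libraries, 712 CPM against at most 299. Backfat 65 held the highest muscle and lymphocyte marker sums of the backfat libraries, 601 and 72.3 CPM against at most 197 and 37.4. No call among the 10 genes changed when liver 67 and backfat 69 were left out, or without backfat 65. The part of these libraries in the values was not otherwise tested.

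Of the 10 genes, 6 were higher in liver and 3 in backfat, with ACSL1 the gene that did not pass. Of all genes tested, 27.0% were higher in liver and 28.0% in backfat by the same test. With a log2 fold change of at least 2 as a second threshold, 4 were higher in liver (FADS1, FADS2, ELOVL2 and ACSL5) and 2 in backfat (FADS3 and ELOVL7), against 11.2% and 11.1% of all genes. The median absolute log2 fold change of the 10 genes was 2.36, beside 0.81 over all genes tested. For 5 of the genes every liver library was above every backfat library, and for 2 every backfat library was above every liver library (19.7% and 22.9% of all genes). In these whole-tissue samples, a lower level in each cell and fewer cells of the expressing type cannot be told apart.

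**Figure D1:**
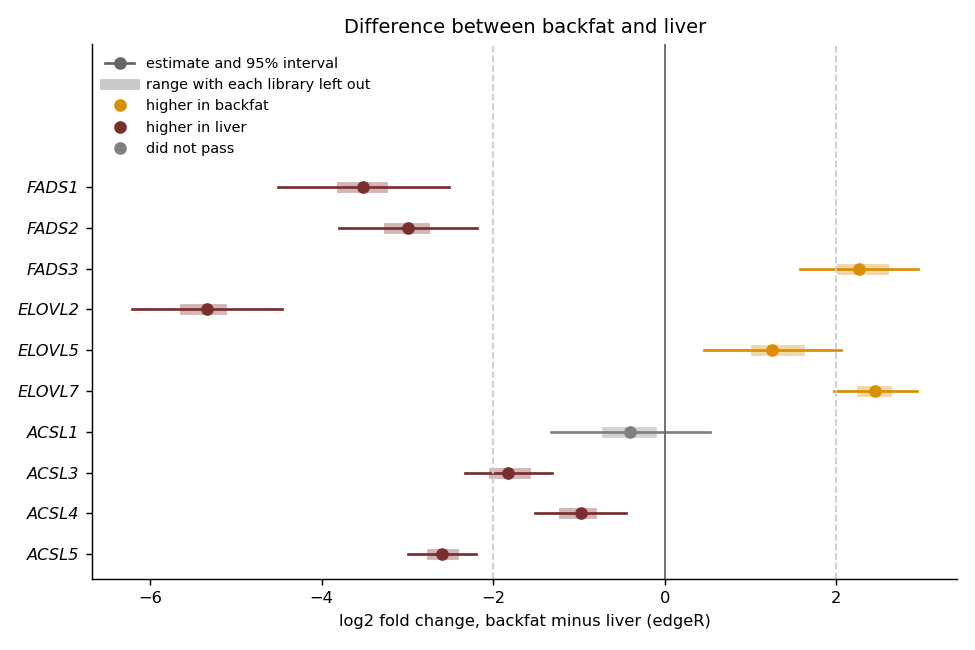
Log2 fold change between backfat and liver (x axis, positive where backfat was higher) of the 10 genes, from edgeR, with the 95% confidence interval (thin line) and the range of estimates with each library left out in turn (thick line). ELOVL2 lay farthest from 0 at -5.33, and the interval of ACSL1 alone covered 0; dashed lines mark a log2 fold change of 2 in either direction.

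FADS1 and FADS2 were many times higher in liver, and FADS3 was higher in backfat. FADS1 in backfat was at 13.6, 5.78, 14.0, 21.4 and 24.2 CPM in boars 65, 67, 69, 71 and 72. In liver of the same boars it was at 182, 63.9, 261, 125 and 269 CPM. The lowest liver library was above the highest backfat library, and the difference was 11.4-fold (log2 fold change -3.51 ± 0.46 SE, n = 5 per tissue, edgeR adjusted p = 3.43e-05). Within single boars, liver was 5.84-fold (boar 71) to 18.7-fold (boar 69) above backfat.

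FADS2, the enzyme of the first step, showed a like pattern. Its backfat level was 27.8, 16.6, 28.5, 42.4 and 47.7 CPM in boars 65, 67, 69, 71 and 72, and its liver level 199, 121, 317, 250 and 412 CPM. The groups did not overlap, and liver was 7.98-fold higher (log2 fold change -2.996 ± 0.37 SE, edgeR adjusted p = 2.13e-05). For both genes boar 67 was lowest and boar 72 highest in backfat and again in liver. The order of the other 3 boars differed between the tissues. Liver 67, the library that stood apart, was lowest in liver for 7 of the genes studied, FADS1 and FADS2 among them. Whether its low values reflect the boar or the library was not tested.

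FADS3 codes for a related desaturase that acts on the sphingoid base of sphingolipids. It was at 18.6, 23.9, 19.5, 26 and 24.2 CPM in backfat and at 3.49, 8.29, 1.95, 4.71 and 4.94 CPM in liver of boars 65, 67, 69, 71 and 72. Every backfat library was above every liver library, by 4.80-fold over all (log2 fold change 2.26 ± 0.32 SE, edgeR adjusted p = 6.2e-05). The highest liver value was in liver 67, and the log2 fold change was 2.54 without that library. The counting did not use strand, and RefSeq places a long non-coding RNA on the opposite strand of FADS3 that shares 817 exonic bases with it, and another on the opposite strand of FADS2 that shares 148. Reads of these RNAs cannot be told apart from those of the desaturases, and their part in the differences was not tested.

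Per exon length, the 3 desaturases summed to 91.3 ± 39.0 FPKM in liver and 19.8 ± 4.70 FPKM in backfat (SD, n = 5). FADS1 and FADS2 took 48.9% and 47.7% of the liver sum, and FADS3 3.35%. In backfat FADS3 took 53.8% ± 10.8 (SD), FADS2 26.6% and FADS1 19.6%. By level per exon length, the order in liver was FADS1 (46 ± 22.4 FPKM) and FADS2 (43.2 ± 18.5), with FADS1 above FADS2 in 3 of 5 libraries, and then FADS3 (2.16 ± 1.08). In backfat it was FADS3 (10.4 ± 1.47), FADS2 (5.42 ± 2.07) and FADS1 (4.03 ± 1.85), an order held in all 5 libraries. These orders and shares depend on the exon lengths used, 3919, 6018 and 2164 bases for FADS1, FADS2 and FADS3. The RefSeq coding lengths are 1311, 1335 and 1554 bases. In mean CPM, FADS2 was above FADS3 in backfat (32.6 and 22.4) and above FADS1 in liver (260 and 180). Of the 8 other protein-coding genes within 200 kb of the 3 desaturases, 5 could be matched by symbol to a tested gene. They did not share 1 direction: TMEM258 was higher in liver, BEST1, RAB3IL1 and DAGLA were higher in backfat, and INCENP did not pass. FTH1, FEN1 and MYRF were not matched by symbol, which does not show that they had few reads.

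**Figure D2:**
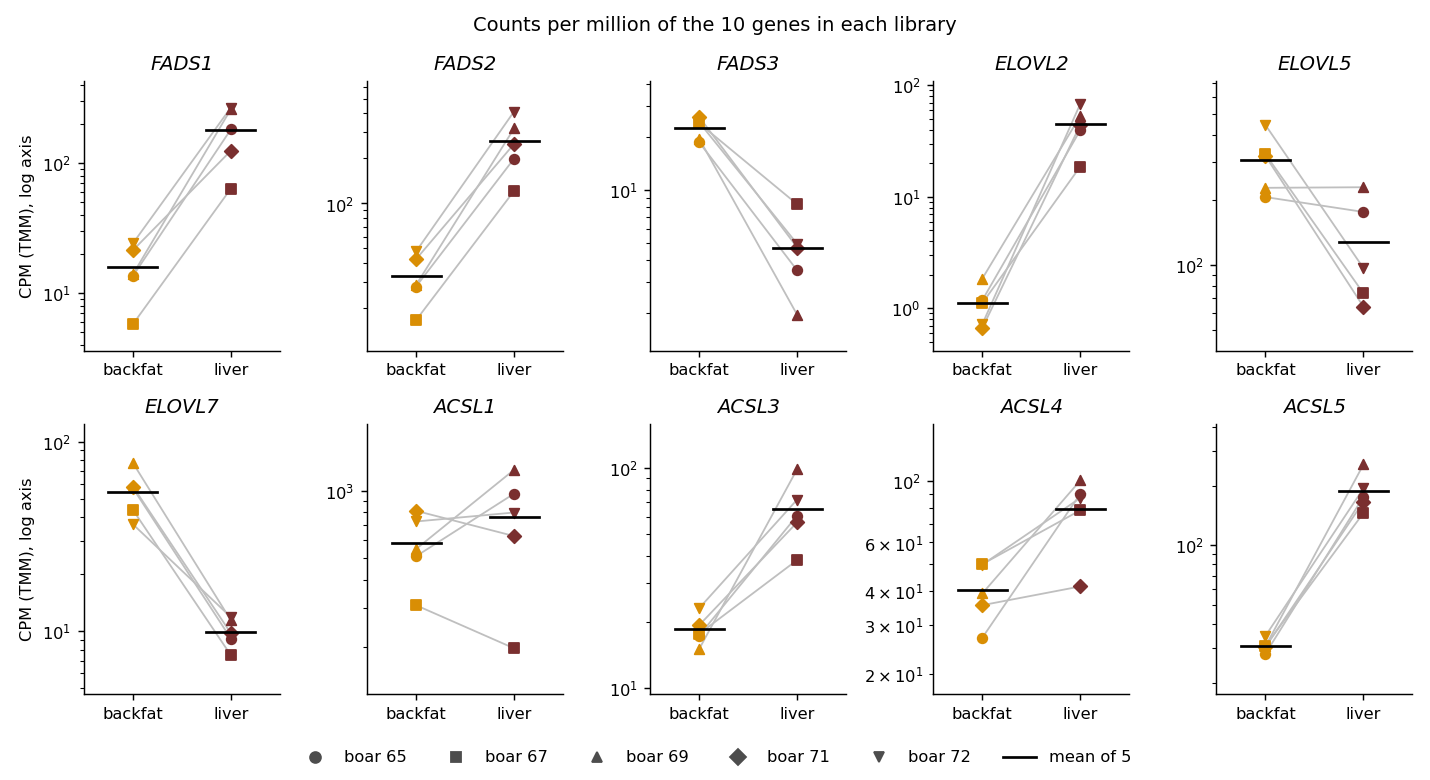
TMM-normalized CPM (log axis, a separate range in each panel) of the 10 genes in the 5 backfat and 5 liver libraries, with grey lines joining the libraries of a boar and black bars at the mean. FADS1, FADS2, ELOVL2, ACSL3 and ACSL5 were higher in all liver libraries, FADS3 and ELOVL7 in all backfat libraries, and the groups overlapped for ELOVL5, ACSL1 and ACSL4.

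Among the elongases, ELOVL2 was higher in liver, and ELOVL5 and ELOVL7 were higher in backfat. ELOVL2 elongates the longer polyunsaturated fatty acids on the way to docosahexaenoic acid. In backfat it was at 1.18, 1.11, 1.85, 0.667 and 0.721 CPM in boars 65, 67, 69, 71 and 72, which rests on 37 to 110 counts. In liver it was at 39.7, 18.7, 53.2, 44.3 and 68.4 CPM. The difference was 40.3-fold (log2 fold change -5.33 ± 0.40 SE, edgeR adjusted p = 3.18e-07). The highest backfat level was in backfat 69, the library with the highest hepatocyte marker sum; without backfat 69 and liver 67 the log2 fold change was -5.79.

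ELOVL5, which elongates polyunsaturated fatty acids at an earlier step, was the most abundant of the 3 in both tissues. Backfat held 207, 327, 228, 321 and 446 CPM and liver 176, 74.0, 230, 64.1 and 96.8 CPM in boars 65, 67, 69, 71 and 72. Boars 67, 71 and 72 were 4.42-fold to 5.00-fold higher in backfat. Boar 65 was 1.17-fold higher, and boar 69 was at nearly the same level in both tissues. The groups overlapped, and the difference was 2.38-fold (log2 fold change 1.25 ± 0.37 SE, edgeR adjusted p = 0.0117), higher in backfat in 4 of 5 boars.

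ELOVL7 is an elongase known mainly for saturated very long-chain fatty acids. It was at 57.0, 43.7, 77.4, 58.0 and 36.7 CPM in backfat and 9.15, 7.48, 11.4, 9.76 and 11.9 CPM in liver. Backfat was above liver in all 5 boars without overlap, 5.49-fold over all (log2 fold change 2.46 ± 0.22 SE, edgeR adjusted p = 1.42e-06). The smallest difference within a boar was 3.09-fold, in boar 72, which had the lowest backfat and the highest liver level.

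The 3 elongases summed to 96.2 ± 25.7 FPKM in backfat and 47.8 ± 22.1 FPKM in liver (SD, n = 5). In backfat the order was ELOVL5 (88.2 ± 27.5 FPKM), ELOVL7 (7.77 ± 2.22) and ELOVL2 (0.231 ± 0.0991). In liver it was ELOVL5 (37.0 ± 20.7), ELOVL2 (9.36 ± 3.81) and ELOVL7 (1.41 ± 0.253). ELOVL2 was thus the second elongase of liver and the last of backfat, with 21.4% of the liver sum and 0.269% of the backfat sum. In liver its share was 13.7% in the lowest library and 32.5% in the highest.

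Among the acyl-CoA synthetases, ACSL5, ACSL3 and ACSL4 were higher in liver and ACSL1 did not pass the test. ACSL5, an enzyme of the mitochondrial outer membrane and endoplasmic reticulum, was at 28.2, 31.0, 30.8, 30.5 and 34.8 CPM in backfat and 176, 146, 257, 166 and 195 CPM in liver. It varied least among the backfat boars of the 10 genes, with a coefficient of variation of 7.55%. Liver was 6.06-fold higher (log2 fold change -2.60 ± 0.18 SE, edgeR adjusted p = 1.86e-07), without overlap. Scaled by library size alone the log2 fold change was -1.91, under the fold threshold.

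ACSL3, an enzyme of the endoplasmic reticulum and of lipid droplets, was at 17.4, 17.7, 15.1, 19.3 and 23.1 CPM in backfat and 60.9, 38.3, 99, 56.7 and 72 CPM in liver. The groups did not overlap, and liver was 3.53-fold higher (log2 fold change -1.82 ± 0.23 SE, edgeR adjusted p = 3.01e-05). Within boars the difference ran from 2.17-fold in boar 67 to 6.57-fold in boar 69.

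ACSL4, which prefers arachidonic acid, was at 27.1, 50.1, 39.2, 35.5 and 49.8 CPM in backfat and 90.1, 78.5, 101, 41.5 and 87.0 CPM in liver. Liver was higher in all 5 boars, but liver 71 lay within the backfat range. The difference was 1.97-fold (log2 fold change -0.98 ± 0.25 SE, edgeR adjusted p = 0.00461). Scaled by library size alone, which puts the median over all genes at 0.71, it was -0.31 and did not pass (edgeR adjusted p = 0.346).

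ACSL1, the main synthetase of adipocytes and hepatocytes, had the highest mean level of the 10 genes in both tissues, per exon length as well as in CPM. Backfat held 509, 308, 549, 814 and 729 CPM and liver 971, 197, 1241, 627 and 800 CPM in boars 65, 67, 69, 71 and 72. Liver was higher in boars 65, 69 and 72, and backfat in boars 67 and 71. The log2 fold change was -0.40 with a 95% confidence interval of -1.33 to 0.53 (edgeR adjusted p = 0.451), which allows a difference in either direction. Its sign turned to 0.23 under scaling by library size alone. Boar 67 was lowest in both tissues, and without liver 67 the log2 fold change was -0.68 (edgeR adjusted p = 0.0883).

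Per exon length ACSL1 was at 104 ± 35.3 FPKM in backfat and 137 ± 69.7 FPKM in liver (SD, n = 5), and in backfat it was above ELOVL5 (88.2 ± 27.5) in 4 of 5 libraries. In liver it was followed among the synthetases by ACSL5 (52.3 ± 11.8), ACSL4 (14.3 ± 4.08) and ACSL3 (10.1 ± 3.45), with ACSL4 above ACSL3 in 4 of 5 libraries. In backfat ACSL5 (8.64 ± 0.652) was above ACSL4 (7.24 ± 1.76) in 4 of 5 libraries, and ACSL3 was lowest (2.85 ± 0.460). In mean CPM, ACSL4 was above ACSL5 in backfat (40.3 and 31.0). The order of ACSL1 and ELOVL5 in backfat also depends on the length used. Their exon lengths are 5606 and 3466 bases, and their RefSeq coding lengths 2100 and 900. ACSL1 made up 83.5% ± 6.13 of the 4 synthetases in backfat and 60.5% ± 13.5 in liver, and ACSL5 7.56% and 27.0%. The lowest ACSL1 share in liver was 36.8%, in liver 67.

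**Figure D3:**
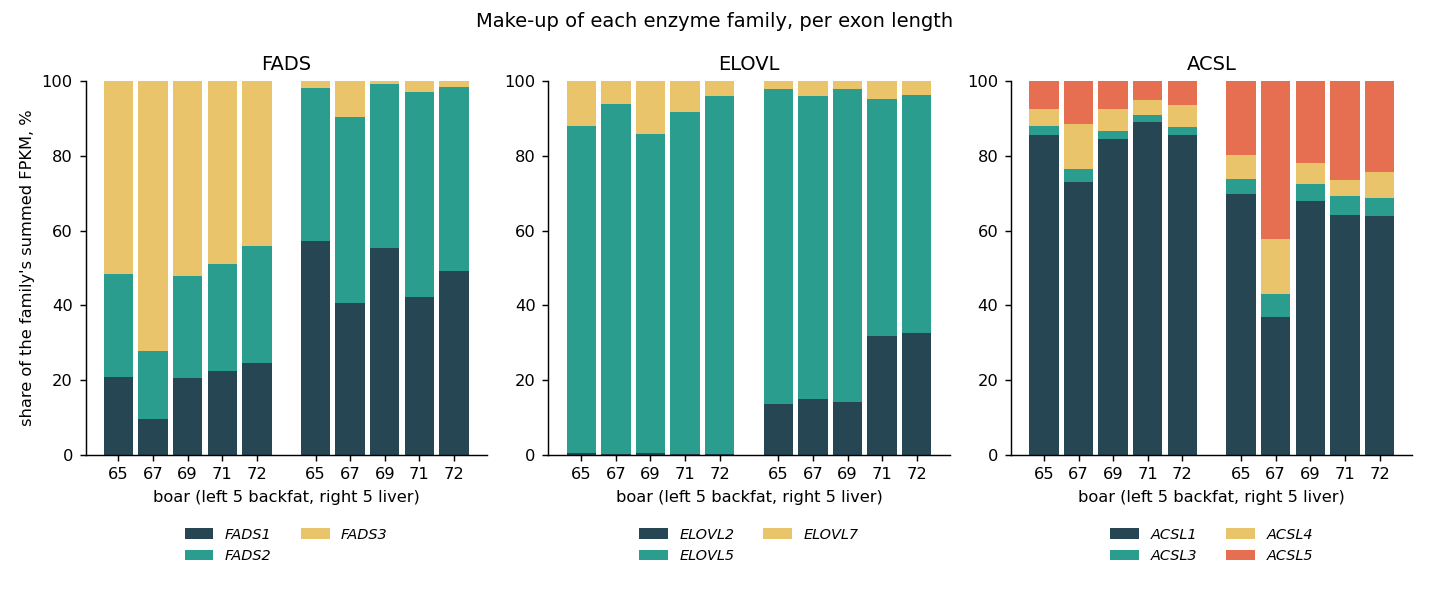
Share of each gene in the summed FPKM of its family (y axis, %) in each library, with 5 backfat libraries on the left and 5 liver libraries on the right of each panel. FADS3 took 44.2% to 72.3% of the FADS sum in backfat and at most 9.51% in liver, and ELOVL2 at least 13.7% of the ELOVL sum in liver and at most 0.5% in backfat. The shares depend on the exon lengths of the count table.

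The make-up of the families was tested by 7 ratios between genes of the same library, which do not depend on how libraries are scaled to each other. Each ratio is that of counts plus 0.5 per kilobase of exon, on a log2 scale, and the tissues were compared by a two-sided exact permutation test whose smallest p for 5 against 5 libraries is 0.00794, adjusted over the 7 ratios. FADS3 to FADS2 differed most among the desaturase ratios: it was 1.02 ± 0.58 (SD) in backfat and -4.35 ± 1.27 in liver, a difference of 5.37 without overlap (exact permutation adjusted p = 0.0139). In linear terms, and with the exon lengths used, FADS3 was 2.03 times FADS2 in backfat and 0.049 times in liver. The difference between the tissues does not depend on gene length, but the size of the ratio within a tissue does. FADS1 to FADS2 was -0.49 ± 0.23 in backfat and 0.03 ± 0.38 in liver, a difference of -0.52 with overlap (exact permutation adjusted p = 0.0333). It was lower in backfat in 4 of 5 boars, and the call was lost in 7 of 10 tests with a library left out, where the difference was -0.62 to -0.40 (exact permutation adjusted p of 0.0222 to 0.0667).

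ELOVL2 to ELOVL5 was -8.61 ± 0.97 in backfat and -1.92 ± 0.86 in liver, a difference of -6.69 without overlap (exact permutation adjusted p = 0.0139). The liver libraries formed 2 levels, with boars 65, 67 and 69 at -2.62 to -2.45 and boars 71 and 72 at -1.002 and -0.97. ELOVL7 to ELOVL5 was -3.50 ± 0.82 in backfat and -4.55 ± 0.73 in liver, a difference of 1.05 that did not pass (exact permutation adjusted p = 0.0926) but did without backfat 72 (1.33, exact permutation adjusted p = 0.037).

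Against ACSL1, the log2 ratio of ACSL5 differed by -2.33 and that of ACSL3 by -1.52 (backfat minus liver), both without overlap (exact permutation adjusted p = 0.0139 each). ACSL4 to ACSL1 was lower in backfat in all 5 boars, with a mean difference of -0.71, and did not pass with the libraries unpaired (exact permutation adjusted p = 0.262). The difference was -0.27 without liver 67 and -1.01 without backfat 67. With boars as pairs, a sign-flip test (exact) has a smallest p of 0.0625, so the ratios were also fitted with limma and boar as a block, a test added after the values were seen. In that fit ACSL4 to ACSL1 passed (-0.71 ± 0.23 SE, limma adjusted p over the 7 ratios 0.0243), FADS1 to FADS2 did not (-0.52 ± 0.22 SE, limma adjusted p = 0.059), and the calls of the other 5 ratios were those of the permutation test.

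**Figure D4:**
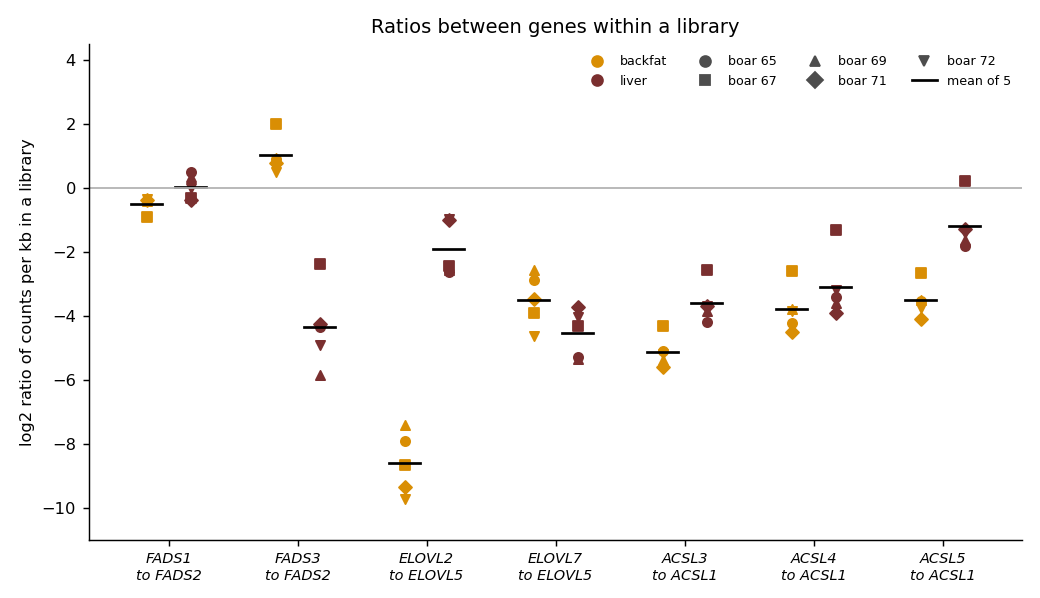
Log2 ratio of counts per kilobase between genes of a family (y axis) in each library, by tissue and boar, with black bars at the mean of 5. The tissues did not overlap for FADS3 to FADS2, ELOVL2 to ELOVL5, ACSL3 to ACSL1 and ACSL5 to ACSL1, and liver 67 lay above the other liver libraries in the last.

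The levels of some of the genes varied together among the boars. After centring on each tissue's mean, the log2 CPM of the genes was correlated over the 10 libraries. Among pairs of the 10 genes, Pearson r was highest for FADS1 and FADS2 (0.94), FADS1 and ACSL1 (0.91), and ACSL3 and ACSL5 (0.93). Without liver 67, the lowest liver library in 7 of the 10 genes, these values were 0.91, 0.90 and 0.90. FADS3 and ACSL1 had r = -0.73, which was -0.38 without liver 67. The libraries come from 5 boars, so the values are descriptions without a test. Each of the 10 genes was also compared with 9081 genes (9082 for FADS3 and ELOVL2) with a mean of at least 5 CPM in both tissues. Only genes with a symbol were ranked. The 3 genes most like each of the 10 had r of 0.92 (HAUS8 with ACSL5) to 0.99, so high values were not particular to pairs of the 10. Among those with a symbol, FADS2 was most like FAM20C (0.96), IDH2 (0.96) and SLC31A1 (0.96), and ACSL1 most like MOGS (0.99), PSMB2 (0.98) and RPN2 (0.98). FADS1 was most like SREBF2 (0.970), a sterol-responsive transcription factor gene, CCDC134 (0.969) and HARS1 (0.968). FADS1 was added to this comparison after its values were seen. The likeness to these other genes was not computed without liver 67.

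The rest of the pathway was described with 8 lists of genes, whose counts stand beside 28.0% of all genes higher in backfat and 27.0% higher in liver. Scaling by library size alone moved the total over the lists from 36 higher in backfat and 44 in liver to 54 and 27, so the balance between the tissues depends on the scaling. Among 8 other desaturases and elongases tested, 4 were higher in backfat (SCD among them), 2 in liver and 2 did not pass, and 1 was higher in liver with at least 10 counts in every library. ELOVL6, which elongates saturated and monounsaturated fatty acids, was at 934 ± 610 CPM in backfat and 139 ± 39.4 in liver (SD, n = 5, log2 fold change 2.75, edgeR adjusted p = 0.00032). SCD, the desaturase that makes oleic acid, was at 5489 and 6094 CPM in backfat of boars 71 and 72, at 174 to 996 CPM in backfat of the other 3, and at 153 to 682 CPM in liver. Its log2 fold change of 2.58 (edgeR adjusted p = 0.0281) did not pass without liver 65, liver 67, liver 71, backfat 71 or backfat 72 (2.0 to 2.61, edgeR adjusted p of 0.0541 to 0.077), nor with boar as a block (1.46, edgeR adjusted p = 0.0995) or with limma-voom (1.56, adjusted p = 0.141). ELOVL4, an elongase of very long chains, was at 1.08 CPM in backfat and 0.221 in liver (log2 fold change 2.27, edgeR adjusted p = 0.00022). In the other direction FADS6, a desaturase-like gene, was at 148 ± 41.0 CPM in liver and 0.18 ± 0.314 in backfat (log2 fold change -9.72), where backfat 69 was at 0.74 CPM and the mean of the other 4 at 0.04. DEGS2, a sphingolipid desaturase, was at 3.07 and 0.479 CPM (-2.67).

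Of 10 tested genes of the elongation cycle and of electron donors to the desaturases, 4 were higher in backfat (7 under library size alone), 3 in liver and 3 did not pass. HSD17B12, the ketoacyl reductase of the cycle, was at 282 ± 104 CPM in backfat and 66.7 ± 19.7 in liver (log2 fold change 2.08, edgeR adjusted p = 9.75e-05). The dehydratase genes HACD1 and HACD3 went in opposite directions, with log2 fold changes of 2.44 and -1.84. CYB5A, the cytochrome that passes electrons to desaturases, was at 142 ± 46 CPM in backfat and 1024 ± 194 in liver (log2 fold change -2.85, edgeR adjusted p = 5.06e-06).

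Of 17 other acyl-CoA synthetases, 6 were higher in backfat, 7 in liver (4 with at least 10 counts in every library) and 4 did not pass. The medium-chain synthetase ACSM4 was at 810 ± 349 CPM in liver and 0.292 ± 0.354 in backfat (log2 fold change -11.44), where backfat 69 was at 0.925 CPM and the mean of the other 4 at 0.134. SLC27A2, a very long-chain synthetase and transporter of liver, was at 55.1 ± 23.9 and 0.789 ± 0.353 CPM (-6.13). SLC27A6 and ACSF2 were higher in backfat, with log2 fold changes of 2.97 and 1.24. Of 13 acyl-CoA thioesterases and binding proteins, 4 were higher in backfat and 5 in liver (2 under library size alone). DBI, the acyl-CoA binding protein, was at 869 ± 221 CPM in backfat and 225 ± 103 in liver (log2 fold change 1.95, edgeR adjusted p = 0.00028), and ACBD6 was also higher in backfat (0.84). The thioesterases ACOT12 (-7.15) and ACOT13 (-3.07) were higher in liver.

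Peroxisomal chain shortening forms docosahexaenoic acid from its longer precursor. Of 13 genes of this list, 6 were higher in liver (3 under library size alone), 2 in backfat (1 with at least 10 counts in every library) and 5 did not pass. EHHADH, the bifunctional enzyme, was at 416 ± 139 CPM in liver and 25.8 ± 5.78 in backfat (log2 fold change -4.01), and ACOX2, an acyl-CoA oxidase, at 250.1 ± 42.6 and 27.4 ± 4.10 CPM (-3.19). ABCD2, a peroxisomal transporter of very long-chain acyl-CoA, had no count in the 5 liver libraries and 9.95 to 21.4 CPM in backfat, at least 973-fold higher against a floor of 3 counts summed over the liver libraries. PEX7, a peroxisomal import receptor, was also higher in backfat (1.13, edgeR adjusted p = 0.00724).

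Of 17 genes of phospholipid acyl chain remodelling, 6 were higher in backfat, 6 in liver (3 under library size alone) and 5 did not pass. PLAAT3 and LPCAT2 were higher in backfat, each with a log2 fold change of 1.94. PLA2G12B, a secreted phospholipase-like gene, was at 115 ± 35.6 CPM in liver and 0.0675 ± 0.123 CPM in backfat (log2 fold change -10.78), where backfat 69 was at 0.286 CPM and the mean of the other 4 at 0.0128. Backfat 69 is the backfat library with the highest hepatocyte markers, and their part in these 3 backfat values was not tested. LCLAT1 had a log2 fold change of -1.49. Of 17 genes of eicosanoid synthesis, which uses arachidonic acid, 5 were higher in backfat, 7 in liver and 5 did not pass. Under library size alone this turned to 9 in backfat and 2 in liver. The liver count was 4 without backfat 71, backfat 72, liver 71 or liver 72 and with no filter, and the backfat count was 2 with at least 10 counts in every library. PTGIS, the prostacyclin synthase, was at 91.2 ± 14.7 CPM in backfat and 7.01 ± 4.40 in liver (log2 fold change 3.70). The lipoxygenase ALOX12B was at 2.31 to 4.79 CPM in backfat and had reads in a single liver library. HPGD, which inactivates prostaglandins, and EPHX1, an epoxide hydrolase, were higher in liver (-2.29 and -4.13).

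Of 20 transcriptional regulators of the pathway, 5 were higher in backfat, 8 in liver and 7 did not pass. The backfat count was 9 under library size alone, with 6 in liver, and 3 with at least 10 counts in every library. PPARG, the regulator of adipocytes, was at 161 ± 34.4 CPM in backfat and 0.742 ± 0.576 in liver (log2 fold change 7.78), and its partner RXRG at 9.68 ± 3.84 and 0.211 ± 0.194 CPM (5.50). HNF4A and HNF4G, regulators of hepatocytes, had log2 fold changes of -9.52 and -7.32. SREBF1, PPARA and SREBF2, named after their values were seen because they are known regulators of desaturase genes, had log2 fold changes of 1.06, -2.08 and -1.79 (edgeR adjusted p = 0.0245, 0.00198 and 7.4e-05). Over the 8 lists, the median log2 fold change ran from -0.76 (peroxisomal chain shortening) to 1.02 (other desaturases and elongases), beside 0.00014 over all genes tested and -1.40 over the 10 genes.

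**Figure D5:**
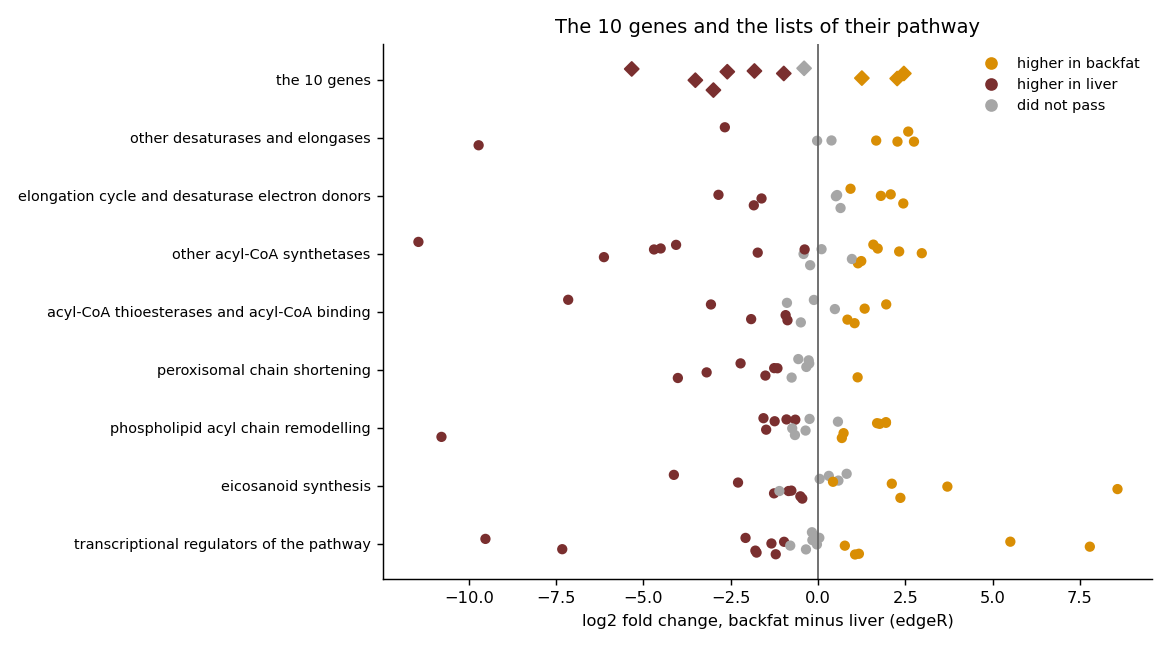
Log2 fold change between backfat and liver (x axis, edgeR) of the 10 genes (diamonds) and of the tested genes of the 8 pathway lists (points, spread vertically within a list for visibility). Each list held genes higher in backfat and genes higher in liver; ABCD2, without counts in liver, is not drawn.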

How the data were processed

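RNA-seq counts of 5 backfat and 5 liver libraries were analysed. The authors trimmed reads with Trimmomatic, aligned them with HISAT2 to Sscrofa11.1 and counted read pairs per gene with featureCounts 2.0.1 (Ensembl release 99, exons, no strand option per the file header), and the deposited values are raw counts. Methylation files without genomic position were not used. Columns were assigned to tissue and boar by header; the replicate numbers of the labels could not be matched to boars.

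Counts were filtered with filterByExpr by tissue, normalized by TMM and tested with the quasi-likelihood functions of edgeR 4.0.16 (R 4.3.3), tissue being the sole factor. The Benjamini-Hochberg adjustment covered 16275 genes. P-values are from this test unless stated. DESeq2 1.42.0, limma 3.58.1 and glmTreat were alternatives. Ratios were tested in Python 3.11.15 with scipy 1.17.1. FPKM used the exon length of the count table, so levels compared between genes depend on that length. Symbols came from a table of Ensembl genes (12740 tested genes with a symbol), and positions and sequences from RefSeq (annotation release 106, Sscrofa11.1).

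Both tissues came from the same boars per the study's methods, so boar was fitted as a replicate block. The same-boar correlations of deviations from the tissue means over 9082 genes were 0.25, 0.11, -0.0053, 0.19 and 0.16 for boars 65, 67, 69, 71 and 72, and the highest with another boar were 0.073, 0.14, 0.19, 0.057 and 0.12, so boars 67 and 69 were more like another boar. The pairing rests on the shared animals and on reading the same number in a backfat and a liver header as the same boar. The labels do not state what these numbers are. The 10 genes and all lists were chosen with earlier results of these data known. Named were the 10 genes, in each list the 2 genes with the lowest adjusted p in each direction, and ELOVL6, SCD, HSD17B12 and TECR (TECR was not matched to a gene), with the 3 genes most like FADS2 and ACSL1. Limits set on a count of 0 cover counting error only.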

Additional observations from a re-analysis of the deposited data

Results flagged for a closer look

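Among 34 groups of 5 values (the 10 genes in CPM and the 7 ratios, in each tissue), 3 held a sample far from the others by Dixon's test at the 95% level, and chance flags about 1 in 20 groups. All 3 were ratios in boar 67. In liver 67 the log2 ratio of ACSL4 to ACSL1 was -1.32, above the next value of -3.19, and that of ACSL5 to ACSL1 was 0.21, above the next value of -1.27. Liver 67 also had the highest mitochondrial share and the highest muscle and red cell marker sums of the liver libraries; their part in these ratios was not tested. In backfat 67 the log2 ratio of FADS1 to FADS2 was -0.90, below the next value of -0.42.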

How the results depend on the processing

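The 9 calls among the 10 genes kept their direction under every alternative, and kept their call except under 2 of them. Tested against a log2 fold change of 2 with glmTreat, FADS3 (2.26), ELOVL5 (1.25), ACSL3 (-1.82) and ACSL4 (-0.98) did not pass, which left 1 gene past it in backfat. Under library size alone ACSL4 (-0.31) did not pass, and ACSL5 (-1.91) fell below the fold threshold, which left 3 genes past both thresholds in liver. Boar as a replicate block changed no call among the 10 genes (ELOVL5 1.40, edgeR adjusted p = 0.0212, ACSL1 -0.24). In the ratio tests with boar as a replicate block, the exact sign-flip test has a smallest p of 0.0625 at 5 pairs and passed no ratio, with values of -0.52 (FADS1 to FADS2), 5.37 (FADS3 to FADS2), -6.69 (ELOVL2 to ELOVL5), -1.52 (ACSL3 to ACSL1) and -2.33 (ACSL5 to ACSL1). With limma, added after seeing the data, ACSL4 to ACSL1 (-0.71) passed with the block and not without it, and FADS1 to FADS2 (-0.52) passed in neither. With a library left out, FADS1 to FADS2 was -0.62 to -0.40 and ELOVL7 to ELOVL5 0.82 to 1.33. Without backfat 69 and liver 67 together, an alternative chosen after seeing the data, FADS1 to FADS2 was -0.62 and did not pass. Genes past both thresholds numbered 1819 in liver and 1814 in backfat. In liver they were 2729 with no filter, 2631 with DESeq2, 1340 under library size alone, 1287 with glmTreat and 981 with at least 10 counts in every library. In backfat they were 2518 with no filter, 2268 with DESeq2, 2874 under library size alone, 1126 with glmTreat and 871 with at least 10 counts. Genes of all 8 lists higher in liver numbered 44, and 27 under library size alone and 15 with glmTreat, and those higher in backfat 36, and 54 under library size alone and 6 with glmTreat. The cause of these shifts was not tested, except that stricter filters leave fewer genes. The lowest count behind a level of the 10 genes was 37 (ELOVL2, backfat 71).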

Other observations

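In backfat, 5 of the 10 genes (FADS1, FADS2, FADS3, ACSL1 and ACSL3) were higher in both boars 71 and 72 than in the other 3 boars, 1 (ELOVL2) was lower in both, and ELOVL5, ELOVL7, ACSL4 and ACSL5 were neither. ELOVL6 and SCD were also higher in both. In liver, ELOVL6 was at 71.9 CPM in boar 67 and at 144 to 175 CPM in the other 4. ELOVL5 in liver fell into boars 65 and 69 (176 and 230 CPM) and boars 67, 71 and 72 (64.1 to 96.8 CPM). These are values of single boars, chosen after they were seen.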
